A study of Mus musculus with 7 samples.

Results

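The constant intergenic H3K4me2 regions without H3K4me3 were 1001 autosomal stretches of chromatin. All of them carried an H3K4me2 peak in each of 4 libraries of mouse common monocyte progenitors (cMoPs), lay away from protein-coding genes and lacked an H3K4me3 call. They were chosen from the calls alone. Touching or overlapping H3K4me2 intervals of chromosomes 1 to 19 were merged into 39395 regions, of which 11891 held a peak in all 4 lists. A region was kept when it lay more than 1 kb from every protein-coding gene end, had its midpoint outside every such gene and shared no base with a peak of the WT cMoP H3K4me3 list. The 1001 members were 2.54% of all regions, 8.42% of those called in all 4 lists and 13.8% of the 7264 that were called in all 4 and lacked H3K4me3. The rest of these 7264 were 1927 regions within protein-coding genes and 4336 regions at gene ends. Of 1164 intergenic regions called in all 4 lists, 163 (14.0%) overlapped an H3K4me3 peak and were left out.

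Histone H3 methylated at lysine 4 marks regulatory DNA. The trimethyl form is densest at active CpG-rich promoters, whereas the dimethyl form is broader and also covers enhancers, poised promoters and weakly transcribed starts. An intergenic stretch with H3K4me2 and little H3K4me3 is therefore the classical picture of a distal enhancer, although unannotated promoters and small noncoding genes can look alike. CUTAC (cleavage under targeted accessible chromatin) ties the transposase to the antibody and tags DNA at low salt, so that it cuts open DNA next to the mark. In cMoPs, bone marrow cells that give rise to monocytes, such elements are set up by factors such as PU.1, C/EBP proteins and IRF8.

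The cells were sorted from bone marrow of mice that carried 1 of 2 forms of the −165-kb enhancer of Zeb2, which encodes a repressor that binds E-boxes. The compared groups were the variant labelled DE, with 2 H3K4me2 libraries, and the unaltered form labelled WT, with 2 H3K4me2 libraries, all 4 of batch 2. The H3K4me3 library was a single WT sample of batch 1, so no H3K4me3 values of DE cells entered the choice of members. The labels list 7 samples, and those of IgG in cMoPs and of H3K4me3 in MDP cells were not analysed here. They give no strain, age or number of animals, nor the mutation behind DE, and nothing says whether 2 libraries of a genotype came from separate mice. Every p-value therefore measures the spread between these libraries, which may be technical.

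The lists held 21237 and 16584 autosomal peaks in DE replicates 1 and 2, and 31217 and 27282 in WT replicates 1 and 2. The H3K4me3 list held 6322. The lists give no number of reads, and the depth of each library is unknown. The shortest interval was 109 bp in both DE lists, against 74 and 91 bp in the WT lists. The header line of the file of DE replicate 1 carries the name of DE replicate 2, so the DE replicate numbers may not be those of the labels. Comparisons of both DE with both WT libraries do not depend on this, whereas values given for 1 DE replicate do. Among 25 monocyte and macrophage genes, 14 and 11 had an H3K4me2 peak within 1 kb of a gene end in DE, against 14 and 17 in WT. The monocyte genes Csf1r, Ly6c2, Irf8 and Cd14 had one in all 4 lists, while Ccr2 and Adgre1 had none. Of 20 granulocyte genes, 9 and 10 had such a peak in DE and 6 and 8 in WT. Of 24 lymphoid genes, 4 and 3 had such a peak in DE and 3 and 3 in WT.

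For the members' own sequence no genome was used, and the only letters shown are those that RefSeq gives for promoters and microRNAs that members overlap. Members overlapped the promoter windows (250 bases before to 50 after the start) of 96 long noncoding RNA (lncRNA) genes. The windows of the 4 strongest members whose summits in all 4 libraries fall inside the window are printed below. They run 5′ to 3′ on the gene's strand, from RefSeq in build GRCm38.p6 (mm10). The Gm52626 and Gm39783 windows lie wholly inside their members. The Gm41856 window shares 282 of its 300 bases with its member and the Gm32420 window 191. Capitals mark matches to a set of 13 short motifs in the Gm52626, Gm41856 and Gm39783 windows. In the Gm32420 window they mark a whole tRNA gene, n-TAagc16, and 1 match to the E-box CAGGTG there stays in lower case.
Gm52626 promoter, chr3:94757986-94758285, plus strand: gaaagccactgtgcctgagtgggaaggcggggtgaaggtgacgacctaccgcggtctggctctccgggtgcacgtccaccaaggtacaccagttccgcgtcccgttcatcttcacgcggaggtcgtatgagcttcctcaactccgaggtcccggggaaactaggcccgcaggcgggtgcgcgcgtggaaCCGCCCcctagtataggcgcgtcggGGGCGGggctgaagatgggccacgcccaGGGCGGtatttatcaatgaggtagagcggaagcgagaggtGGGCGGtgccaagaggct
Gm41856 promoter, chr19:45544984-45545283, minus strand: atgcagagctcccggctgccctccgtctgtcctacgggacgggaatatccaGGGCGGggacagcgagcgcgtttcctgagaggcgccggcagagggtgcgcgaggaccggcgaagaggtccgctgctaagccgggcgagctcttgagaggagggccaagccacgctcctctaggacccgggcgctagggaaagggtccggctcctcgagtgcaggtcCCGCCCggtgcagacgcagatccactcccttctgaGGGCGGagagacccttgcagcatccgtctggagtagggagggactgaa
Gm39783 promoter, chr2:30771997-30772296, plus strand: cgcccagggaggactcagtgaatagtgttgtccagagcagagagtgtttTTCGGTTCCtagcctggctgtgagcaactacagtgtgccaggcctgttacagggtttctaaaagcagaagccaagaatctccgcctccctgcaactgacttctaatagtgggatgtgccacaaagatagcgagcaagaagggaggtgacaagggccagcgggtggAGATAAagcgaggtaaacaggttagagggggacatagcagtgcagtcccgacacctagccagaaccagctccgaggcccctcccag
Gm32420 promoter, chr13:21222490-21222789, minus strand: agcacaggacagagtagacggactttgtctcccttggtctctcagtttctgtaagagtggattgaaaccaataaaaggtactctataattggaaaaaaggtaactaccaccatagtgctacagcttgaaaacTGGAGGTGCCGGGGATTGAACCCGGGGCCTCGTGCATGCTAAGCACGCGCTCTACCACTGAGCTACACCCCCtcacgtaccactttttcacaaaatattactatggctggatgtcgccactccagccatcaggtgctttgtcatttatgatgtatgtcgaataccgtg
The Gm52626 window held 4 matches to the GC box GGGCGG, counting both strands, and the Gm41856 window held 3. Both are rich in G and C, at 65.0% and 67.3%. The Gm39783 window had no GC box but held the letters GGAANNGAA, which ETS and IRF proteins can bind together, on the minus strand, and 1 match to the GATA motif. The capitals in the Gm32420 window cover the 72 bases of n-TAagc16 at chr13:21222586-21222657, so there a promoter call and a tRNA gene fall on the same bases. They are printed on the strand of Gm32420, which need not be that of the tRNA gene.

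Over the 107 windows overlapped by a member the median G or C content was 59.0%, against 48.3% over all 11311 lncRNA windows and 57.0% over the 20085 windows of protein-coding genes. The ratio of observed to expected CpG had a median of 0.608, against 0.246 over all lncRNA windows and 0.586 over those of protein-coding genes. GGGCGG occurred in 56.1% of the 107 windows, 16.3% of all lncRNA windows and 47.0% of those of protein-coding genes. On these 3 measures the 107 windows lay nearer to protein-coding windows than to all lncRNA windows. Protein-coding windows overlapped by gene-end regions without H3K4me3 stood higher still, at 63.7%, 0.799 and 74.6%. That set is itself part of the protein-coding windows, so it cannot show whether the closeness is particular to members. The lncRNA windows overlapped by other regions were not compared. The matches are a description of letters, not of bound sites. Letters tied to myeloid or E-box factors were not more frequent to a like degree. GGAANNGAA stood in 13.1% of the 107 windows against 9.1% of all lncRNA windows, and GAAANNGAA, which IRF proteins bind, in 8.41% against 9.30%. CAGGTG, the E-box that E proteins and ZEB2 share, stood in 18.7% of the 107 windows and 21.2% of all lncRNA windows. Windows of neighbouring transcripts can overlap, so they are not independent of each other, and no motif was tested.

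A second set of sequences comes from members that overlap microRNA genes. Of 1136 autosomal microRNA genes 4 were overlapped, by 3 members. One member of 988 bp at chr11:75172831-75173818, 2.13 kb from an end of Ovca2, covered both Mir212 and Mir132, a tandem pair whose 3p products share the seed (bases 2 to 8, in capitals).
mmu-miR-132-3p: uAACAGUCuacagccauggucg
mmu-miR-212-3p: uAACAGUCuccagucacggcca
mmu-miR-132-5p: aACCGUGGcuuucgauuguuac
mmu-miR-212-5p: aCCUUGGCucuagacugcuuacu
The 3p arms of miR-132 and miR-212 carry the seed AACAGUC and the 5p arms differ from each other in theirs. At this member the authors' fold over background was 10.2 and 9.62 in DE and 15.7 and 16.8 in WT. Its rank, introduced below, overlapped between the genotypes. The member at chr11:53763550-53764152 covered Mir7671 near Irf1, the gene of an interferon-induced transcription factor, with folds of 5.26 and 4.67 in DE and 7.29 and 7.72 in WT. The last one, at chr13:62760594-62760816, overlapped Mir713 and the lncRNA gene Platr25, with folds of 9.25 and 6.64 in DE and 4.61 and 6.11 in WT. By the same rank the Mir7671 member overlapped between the genotypes. The Mir713 member was higher in DE without overlap, at 65.8 and 48.3 in DE and 6.39 and 16.1 in WT, but not called by limma.

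Most members ranked low among the regions called in all 4 lists. The authors' fold had a median over members of 6.15 and 5.18 in DE and 7.05 and 7.88 in WT, and the highest values were 43.9 and 30.4 in DE and 79.8 and 49.6 in WT. Folds are set by each library's own background and cannot be compared between lists. A region's place was therefore used, its percent rank by −log10 p among the 11891 regions called in all 4 lists of the same library, where 100 is the strongest. All libraries rank the same regions, so the length of a list does not enter. The median place of members was 34.5 and 32.7 in DE and 35.6 and 30.0 in WT. The typical member thus stood in the weaker part of these 11891 regions in each library. Peaks outside these regions were not ranked. Members had a median width of 405 bp and ran from 128 to 2823 bp.

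Set against constant regions that also lacked H3K4me3, members stood lower. Their median place was below that of the gene-end regions by 9.81 points on average over the 4 libraries (SD 2.21, n = 4) and lower in 4 of 4 (exact two-sided sign-flip permutation test, p = 0.13, the smallest that 4 libraries allow). Against intragenic regions the mean difference was −5.11 points (SD 2.75, n = 4), lower in 4 of 4 (same exact test, p = 0.13). The 4 differences from intragenic regions were −5.38 and −7.26 in DE and −1.16 and −6.63 in WT. Ranked by the authors' fold in place of p, the differences were −0.98 from gene-end regions (exact p = 0.375) and −3.47 from intragenic regions (exact p = 0.25). Relative to gene-end regions the fold therefore does not separate the classes. Peaks covered 41.5 bp less of a member than of a gene-end region in the median (mean of the 4 differences, SD 17.0, exact p = 0.13), and 2.75 bp less than of an intragenic region (SD 16.9, exact p = 0.875).

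**Figure D1:**
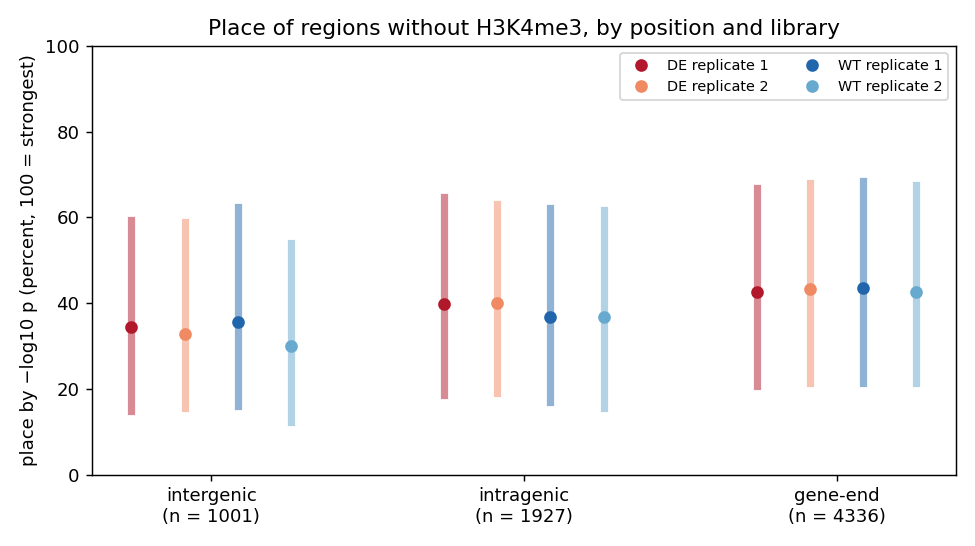
Place by −log10 p (percent, 100 = strongest) of constant regions without H3K4me3, by position and library; points are medians and bars run from the lower to the upper quartile. The intergenic medians (30.0 to 35.6) lie below the gene-end medians in all 4 libraries, and the quartiles of the classes overlap widely.

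The distance to the nearest protein-coding gene end had a median of 15.7 kb and ran to 1754 kb. At 1 to 10 kb stood 409 members, at 10 to 50 kb 359, at 50 to 100 kb 87 and beyond 100 kb 146. The median place in the nearest bin was 39.2 and 41.7 in DE and 37.8 and 37.2 in WT. Beyond 100 kb it was 21.6 and 20.8 in DE and 28.1 and 12.2 in WT, below the nearest bin in all 4 libraries. The merged regions of the farthest bin were nevertheless wider, with a median of 554.5 bp against 356 bp in the nearest. The remotest member lay at chr3:43557431-43558225, with D3Ertd751e as its nearest gene, and had places of 37.3 and 22.9 in DE and 26.8 and 22.1 in WT. The next were nearest to Pik3c3 (1635 kb), Pla2g4a (1450 kb), Rpia (1249 kb) and Alcam (1201 kb). The one nearest to Rpia overlapped the immunoglobulin kappa locus Igk, so protein-coding genes alone understate what surrounds it. It had places of 35.5 and 58.0 in DE and 95.6 and 41.0 in WT.

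**Figure D2:**
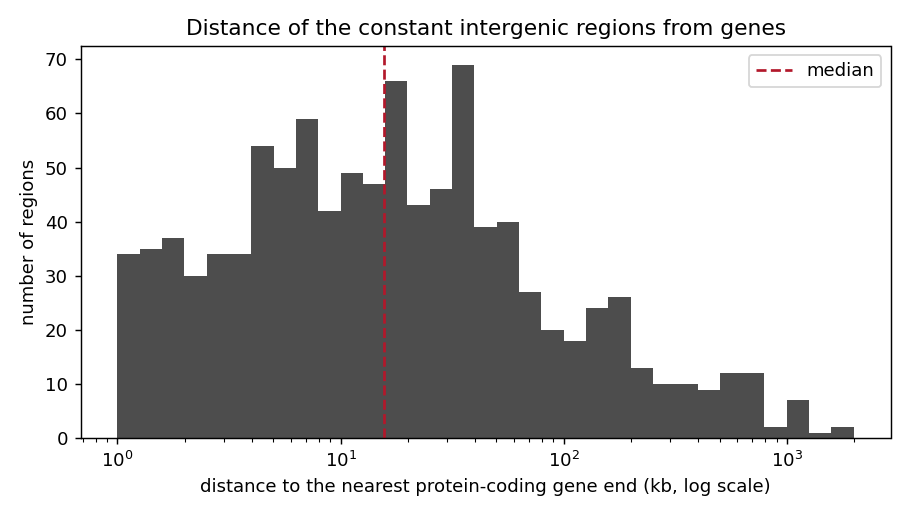
Number of members by distance from the nearest protein-coding gene end (kb, log axis), with the median of 15.7 kb as a dashed line. Members reach from the 1 kb limit to 1754 kb, and 409 of them lie at 1 to 10 kb.

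The 1 kb limit cuts through a continuum. Just inside it lay members near Wnk1 (1006 bp), Tent5a (1010 bp) and Smad3 (1015 bp), with mean places over the 4 libraries of 34.5, 26.1 and 22.4. Just outside lay regions near Tmem44 (1000 bp), Sp7 (999 bp) and Ap3m2 (982 bp), with mean places of 39.4, 16.4 and 29.7. The limit on H3K4me3 is likewise a call and not an absence of the mark. The nearest H3K4me3 peak stood at a median of 82.4 kb, and 25 members had one within 1 kb, 112 within 5 kb and 547 within 100 kb.

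Intergenic here means free of protein-coding genes, and 362 members (36.2%) overlapped a noncoding RefSeq gene or an lncRNA promoter. Each was put in 1 class in the order used here. On 5S rRNA genes lay 26, on tRNA genes 14, on snRNA genes 12 and on the 7SL gene Rn7s2 1. A further 86 lay on lncRNA promoters, 177 elsewhere in lncRNA genes and 46 on other noncoding genes, pseudogenes among them. The other 639 met no RefSeq gene. The 639 had a median place of 30.3 and 26.2 in DE and 35.6 and 23.8 in WT. Those on lncRNA promoters had 47.2 and 44.6 in DE and 35.4 and 43.5 in WT, above the 639 in 3 of 4 libraries and level with them in WT replicate 1.

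**Figure D3:**
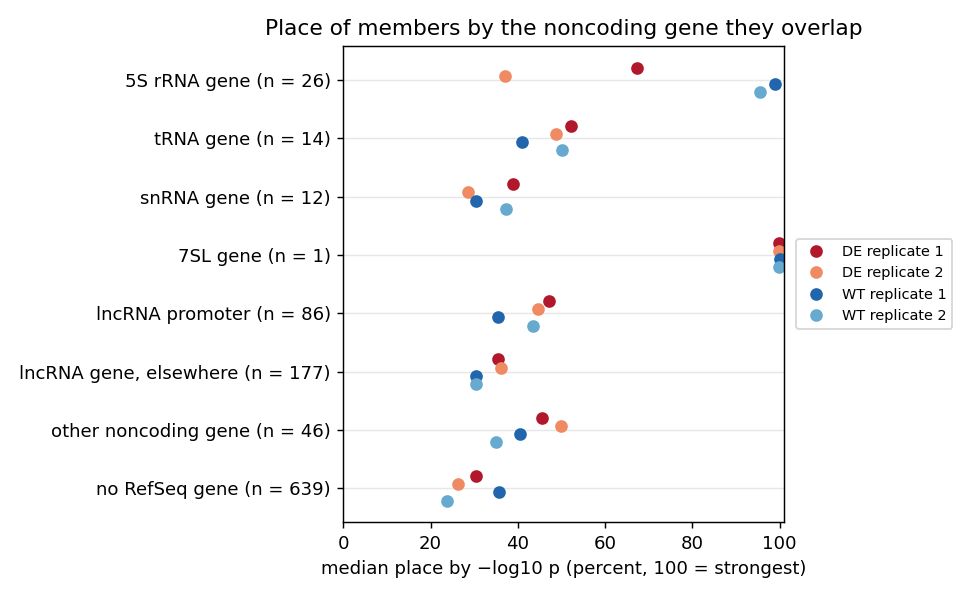
Median place by −log10 p (percent, 100 = strongest) of members in each library, by the noncoding gene they overlap. The 7SL member stands near 100 in all 4 libraries, and members on 5S rRNA genes stand at 67.2 and 37.0 in DE against 98.9 and 95.5 in WT.

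Of the 10 members with the highest mean place, 3 covered genes of small structural RNAs, most of which exist in several near-identical copies. As a class the 12 members on snRNA genes were not strong, with a median place of 38.8 and 28.6 in DE and 30.4 and 37.3 in WT. The 14 on tRNA genes had 52.1 and 48.7 in DE and 40.9 and 50.02 in WT. The member at chr12:69361190-69361707, 3.99 kb from Nemf, covered Rn7s2, a gene of the 7SL RNA of the signal recognition particle, which carries nascent secreted proteins to the membrane. Its fold was 20.4 and 17.9 in DE and 79.8 and 44.3 in WT, yet its place was above 99.8 in each library. Members at chr3:96488256-96489275 and chr3:96486001-96487135, with BC107364 as their nearest gene, covered the snRNA genes Gm22614 and Gm25890. Their folds were 31.5 and 16.8 in DE and 27.2 and 43.8 in WT for the one, and 30.9 and 20.5 in DE and 22.3 and 45.2 in WT for the other. Only a few such genes were reached: members overlapped 14 of 391 tRNA genes and 12 of 931 snRNA genes, and regions of any list overlapped 148 and 29.

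The other leading members were of mixed kind. The member with the highest mean place, at chr13:74528468-74530893 near Zfp825, a zinc-finger gene, was 2426 bp wide and had a place above 99.8 in each library. Ranked by fold its mean place was 32.2, a strong p beside a low fold. The member at chr16:98107536-98107753 near B230307C23Rik likewise had a mean place of 6.81 by fold. No list of problem regions was applied. The member at chr17:4626170-4626593 in the lncRNA gene Gm34259, 368 kb from the chromatin-remodelling gene Arid1b, had folds of 43.9 and 30.4 in DE and 24.4 and 49.6 in WT and led the list by fold too. A member at chr6:52221346-52222014 lay 1.08 kb from Hoxa9, the homeobox gene of progenitor self-renewal. Its fold was 25.9 and 19.5 in DE and 26.4 and 30.8 in WT, and by fold it stayed among the strongest 10. The remaining 3 lay near Gm21188, Skor1 (a corepressor of SMAD signalling) and Skida1. Near Gm21188 the fold was 25.9 and 19.2 in DE and 25.5 and 35.2 in WT. Near Skor1 it was 12.8 and 8.88 in DE and 22.6 and 23.7 in WT. Near Skida1, where 3 lncRNA genes overlap the member, it was 9.76 and 8.54 in DE and 19.3 and 17.9 in WT.

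On tRNA genes the strongest member, at chr1:171079882-171080428 near Fcgr3, covered n-TGtcc4 and had places of 90.9 and 93.9 in DE and 94.7 and 93.2 in WT. A second one in the same group, on n-TEctc8, had 97.5 and 88.0 in DE and 81.4 and 94.5 in WT. The member on n-TAagc16, the tRNA gene printed in capitals above, had 85.9 and 87.4 in DE and 86.4 and 70.2 in WT. These 3 were strong in every library and overlapped between the genotypes. Of the 14 members on tRNA genes, 3 were higher and 3 lower in DE without overlap of the places, where 21.0% of all 11891 regions were higher and 19.3% lower in this way. Of the 12 on snRNA genes the numbers were likewise 3 and 3.

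At the printed lncRNA promoters the members' folds were as follows. At Gm52626 the fold was 7.65 and 5.97 in DE and 12.3 and 11.3 in WT. At Gm41856, 7.01 kb from the DNA polymerase gene Poll, it was 14.2 and 10.3 in DE and 23.8 and 19.3 in WT. At Gm39783, the window without a GC box, it was 12.01 and 9.39 in DE and 10.2 and 15.4 in WT. At Gm32420 it was 14.2 and 12.2 in DE and 15.0 and 16.5 in WT. Of the 86 members on lncRNA promoters, 20 were higher and 13 lower in DE without overlap, and of the 177 elsewhere in lncRNA genes 43 and 24. Of the 639 that met no RefSeq gene the numbers were 130 and 102, where 21.0% of all 11891 regions were higher and 19.3% lower.

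Some 287 members (28.7%) stood in 105 groups with gaps of at most 12.4 kb, within the distance customarily used to join enhancers, and the other 714 stood alone. The largest group by far was the 5S rRNA gene array between Gas8 and Rhou, with 28 members over 78.9 kb at chr8:123545246-123624190. Its genes encode the small RNA of the large ribosomal subunit, made by RNA polymerase III from tandem repeats. RefSeq lists 48 rRNA genes in the array, and 47 were overlapped by a region of some list and 26 by members. The starts of members were 1719 bp apart in the median and their median width was 789.5 bp. The other 2 members lay on the pseudogene Rn5s-ps1 and on Gm23647. The next groups were 8 members over 22.6 kb near Gm21119 and 7 over 23.8 kb near Gm36079. Among the groups, the 8 members near Gm21119 had a median place of 38.3 and 15.6 in DE and 50.3 and 22.5 in WT, and the 7 near Gm36079 had 69.4 and 76.3 in DE and 73.1 and 64.6 in WT. The 6 near Fcgr3, 4 of them on tRNA genes, had 75.2 and 66.9 in DE and 72.0 and 79.4 in WT. The lncRNA gene Lncpint held 2 groups of 5 members each, one over 5.48 kb near Mkln1 and one over 3.89 kb near Klf14. The first had a median place of 53.4 and 36.1 in DE and 18.8 and 37.6 in WT, and the second 34.5 and 36.1 in DE and 37.8 and 30.0 in WT, so the places of all 5 groups overlapped between the genotypes.

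In the array DE and WT stood apart by place. The median place of its 28 members was 67.2 and 37.0 in DE and 98.6 and 95.3 in WT. The mean place over the 28 was 61.7 and 38.3 in DE and 94.8 and 87.9 in WT. Both DE libraries thus lay below both WT libraries, by 41.3 points in the mean (50.001 ± 16.5 in DE, 91.3 ± 4.92 in WT, SD, n = 2 each, exact two-sided permutation test, p = 0.33, the smallest that 2 against 2 allow). At 27 of the 28 members both DE places were below both WT places, where 19.3% of all 11891 regions were lower in this way. The exception covered n-R5s112, with 31.8 and 28.02 in DE and 57.5 and 14.2 in WT. The members of the array share 1 locus and near-identical sequence, so they are 1 observation and not 28.

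**Figure D4:**
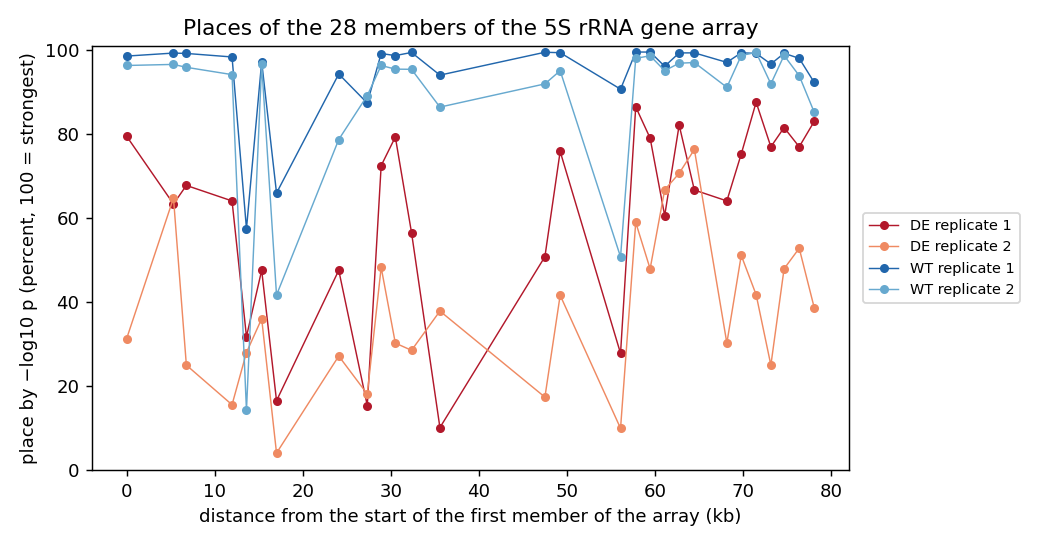
Place by −log10 p (percent, 100 = strongest) of the 28 members of the 5S rRNA gene array in each library, against the distance from the start of the first member (kb). The DE lines lie below the WT lines at every member but the one 13.6 kb from the start, which covers n-R5s112.

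Within the span 39 and 28 of 89 regions were called in DE (43.8% and 31.5%) and 85 and 56 in WT (95.5% and 62.9%). The WT lists are longer throughout, and over all 39395 regions the shares were 52.3% and 40.3% in DE and 71.4% and 65.4% in WT. Calls in both WT libraries and neither DE library made up 16 of the 89 (17.98%) and 8.77% of all regions, and 31 of the 89 were called in WT replicate 1 alone. None overlapped an H3K4me3 peak. No single array member passed limma's test on places, which called 0% of all 11891 regions, and the lowest Benjamini-Hochberg adjusted p of an array member was 0.366. Near-identical copies share reads, and the labels do not say how reads with several matches were placed. The shortest intervals also differed between the genotypes (109 bp in DE, 74 and 91 bp in WT), and the part of either in the difference was not tested.

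Over all members the genotypes were close by p, and DE stood somewhat higher by fold. Ranked by −log10 p, the median place of members was 33.6 ± 1.25 in DE and 32.8 ± 3.98 in WT (SD, n = 2 each), a difference of 0.78 points (exact permutation test, p = 1). Ranked by fold it was 45.1 and 42.8 in DE and 39.6 and 38.2 in WT, a difference of 5.08 points without overlap (exact permutation test, p = 0.33, the smallest possible). Intragenic regions without H3K4me3 went the same way by fold, with 47.8 and 48.1 in DE and 39.6 and 44.0 in WT. Gene-end regions without H3K4me3 overlapped (42.0 and 43.2 in DE, 42.8 and 41.5 in WT). Gene-end regions with H3K4me3 were lower in DE (58.8 and 57.9, against 63.7 and 62.7 in WT). In limma, fitted to the places of all 11891 regions, 0 members rose and 0 fell at an adjusted p of 0.05, and 0% of all regions did in either direction. At an unadjusted p of 0.05, 50 members were higher and 65 lower in DE, and 26 of the array's 28 were among the 65. Over all 11891 regions, in both directions together, 1040 had such a p. Both DE places lay above both WT places at 210 members (21.0%), where the share over all 11891 regions was 21.0%. Both lay below at 176 members (17.6%), where the share over all regions was 19.3%. Without the array 149 of 973 (15.3%) lay below and 210 (21.6%) above. Members' shares were thus near those of all regions, and requiring a call in all 4 lists limits how low a member can be in either genotype.

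**Figure D5:**
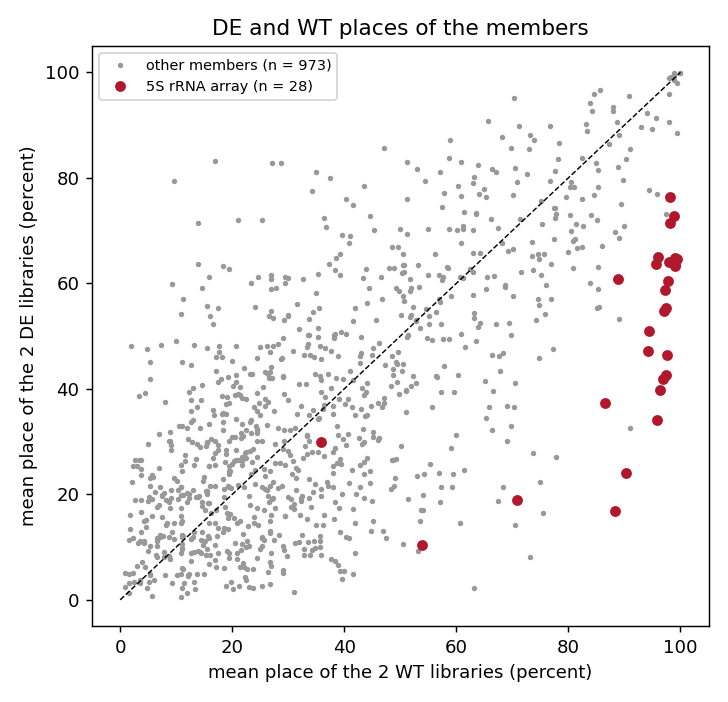
Mean place (percent) of each member in the 2 DE libraries (vertical) against the 2 WT libraries (horizontal), with equality dashed. The 28 members of the 5S rRNA gene array (red) lie below the line, with WT means mostly above 85, and the other 973 spread on both sides.

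The members farthest apart without overlap are given as a description. Higher in DE was first the member 7.77 kb from Ptpn11, the gene of the phosphatase SHP2 that relays cytokine receptor signals, with places of 82.6 and 76.2 in DE and 3.11 and 16.1 in WT. The member 1.58 kb from Frs2, an adaptor of growth factor receptors, had 81.0 and 85.4 in DE and 14.9 and 18.8 in WT. The member 26.2 kb from Mrpl1, which encodes a mitochondrial ribosomal protein, had 82.5 and 60.2 in DE and 1.82 and 25.9 in WT. Lower in DE were first the array members on n-R5s120, with places of 15.4 and 18.1 in DE and 87.4 and 89.2 in WT, and on n-R5s125, with 10.2 and 37.9 in DE and 94.1 and 86.4 in WT. Outside the array the member 33.2 kb from Kazn had 9.39 and 6.96 in DE and 90.9 and 55.2 in WT. None of the 6 passed limma at an adjusted p of 0.05.

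Zeb2 itself, whose enhancer differs between the groups, had no member within 300 kb. The nearest one on its chromosome lay 1164 kb away at chr2:46281851-46282274, with places of 12.6 and 60.8 in DE and 94.1 and 43.9 in WT, which overlap.

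Members were assigned to the protein-coding gene with the nearest end within 100 kb, which 855 of the 1001 had, over 678 of 20665 autosomal genes (3.28%). Nearness says nothing of which gene an element acts on. Among 20 stem and progenitor genes 5 had 8 members, among 20 core myeloid regulators 4 had 7, among 16 genes of ZEB2, E proteins and ID inhibitors 3 had 4, and among 16 housekeeping genes 3 had 4. Among 24 dendritic cell genes 2 had 2 and among 25 monocyte and macrophage genes Klf4 had 1. None of 20 granulocyte genes, 24 lymphoid genes or 21 erythroid, megakaryocyte and mast cell genes had any. Spi1, Irf8 and Cebpa, the classical enhancer-driven genes of this lineage, had none either. The lists are small and overlap, so Klf4 counts in 3 of them.

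Of the progenitor genes, Sox4, a transcription factor gene, had 3 members. The strongest, 4.19 kb away at chr13:28957891-28958814, had folds of 8.45 and 7.57 in DE and 14.0 and 15.9 in WT. Its places were 56.6 and 57.6 in DE and 82.3 and 71.4 in WT, lower in DE without overlap but not called by limma. The Sox4 member at chr13:28959433-28959872 went the other way without overlap, with 67.4 and 71.1 in DE and 23.4 and 55.7 in WT. Limma did not call it either, and the places of the remaining Sox4 member overlapped. Meis1, a HOX cofactor gene, had 2 members, and its stronger one had places of 64.9 and 22.9 in DE and 17.1 and 27.1 in WT. The member 14.9 kb from Cd34, a surface glycoprotein of progenitors, had places of 0.58 and 27.9 in DE and 29.6 and 40.2 in WT. Hoxa10 had 1 member beside that of Hoxa9.

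Of the myeloid regulators, Fos, a subunit of AP-1, had 4 members between 1.21 and 18.3 kb away. The strongest of them, at chr12:85487580-85488123, had folds of 11.2 and 10.2 in DE and 13.8 and 17.0 in WT, and its places overlapped. The Fos member at chr12:85455161-85455606 was higher in DE without overlap, with places of 57.0 and 66.4 in DE and 30.0 and 40.7 in WT. Limma did not call it, and the places of the remaining Fos members overlapped. The member 11.97 kb from Klf4, a gene needed for monocyte differentiation, had folds of 13.7 and 9.33 in DE and 16.7 and 19.3 in WT. Its places were 83.3 and 73.3 in DE and 90.6 and 80.0 in WT, which overlap. Egr1, whose product favours the monocyte fate, had a member just 1.04 kb from its end with places of 69.8 and 82.9 in DE and 57.6 and 73.1 in WT. Fosb had 1 member. So Egr1 and Fos had a member within 2 kb of an end, while that of Klf4 stood farther out.

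Of the inhibitors of E proteins, Id1 had 2 members and Id2 had 1, whereas the E protein genes had none. The Id2 member, 2.72 kb away at chr12:25098815-25099023, had folds of 8.40 and 5.77 in DE and 9.73 and 15.7 in WT. Its places were 70.5 and 52.8 in DE and 63.4 and 86.7 in WT, which overlap. The stronger Id1 member had places of 23.0 and 55.7 in DE and 51.7 and 36.0 in WT. Cbfa2t3, the gene of the ETO2 corepressor, had 1 member 1.30 kb from its end, with places of 64.1 and 16.5 in DE and 6.39 and 44.6 in WT. Among housekeeping genes, Actb had 2 members and its stronger one had places of 3.32 and 1.61 in DE and 5.41 and 40.5 in WT, weak in all but 1 library.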

How the data were processed

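Per the labels' protocols, CUTAC of sorted cMoPs used a CUT&Tag kit with tagmentation free of salt, and reads were 150-bp pairs. Tools named in the submitters' processing notes are MACS2 2.2.9.1, Bowtie2, Trimmomatic, Picard and SAMtools, with build mm10 and no settings. Peaks were called per sample, since each deposited list belongs to 1 library. The deposited score of a peak, its fold (a linear ratio over local background), its −log10 p and −log10 q, and the offset of its summit are the authors' own values. They were used to describe and rank peaks within a list.

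A region's value was that of its strongest summit by −log10 p, and overlap meant at least 1 bp. Genes came from RefSeq GRCm38.p6, whose table gives gene bounds, so both gene ends count. Coordinates are counted from 1. Places were turned into normal scores and fitted with limma 3.58.1 (R 4.3.3), DE against WT, with Benjamini-Hochberg adjustment over all regions; the code was tested on simulated data. Other values used Python 3.11.15, pandas 2.3.3, numpy 2.4.6 and scipy 1.17.1. Batch 2 holds all H3K4me2 libraries, of both genotypes, and batch 1 the H3K4me3 library.

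The members and gene lists were chosen with earlier results of these data known. The text names the 10 strongest members, up to 3 genes per list, the 3 members farthest apart per direction, the 3 largest groups, members near Zeb2 or on microRNA genes, those at the 1 kb limit and the 5 remotest. The groups near Fcgr3 and in Lncpint, the tRNA members, the regions called by class of noncoding gene, the printed promoters, Hoxa10 and Fosb were added after their values were seen. Alternatives were other merging, overlap, gene-end and q limits, lists of equal length, the fold in place of p, other sets ranked, the replicate block and leaving out each library. No sequence of the members was read.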

Additional observations from a re-analysis of the deposited data

Results flagged for a closer look

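On chromosomes X and Y, which the choice of members leaves out, 1620 H3K4me2 regions were found, of which 275 were called in all 4 lists. Of these, 69 (25.1%) met the same conditions on position and H3K4me3, where 8.42% of the autosomal regions called in all 4 lists did. They are listed as peaks in data that no comparison used, and the difference in share was not tested.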

How the results depend on the processing

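The number of members rests on the calls: it was 458 when peaks had to cover 50% of a region, 378 with a −log10 q of at least 5 and 601 with lists of equal length. With 3 lists asked for in place of 4 it was 1091 to 1554, the highest without DE replicate 2. The DE minus WT difference in median place (0.78) became −0.55 when only regions without H3K4me3 were ranked, −0.10 without DE replicate 1 and −2.03 without WT replicate 2; leaving out each library gave −2.03 to 3.59. It was 5.08 by fold and 2.17 with a −log10 q of at least 5, both without overlap of the genotypes (exact permutation test, p = 0.33, the smallest possible), and 1.84 without the array. Members whose places did not overlap were 81 higher and 72 lower in DE with a −log10 q of at least 5. They were 332 to 386 higher and 281 to 395 lower when each library was left out. That leaves 1 library on a side, where places of any region overlap less often. Shares over all regions are given for the main setting only. The counts under these other settings therefore cannot be read as a result about members. Limma called 0 members in either direction by fold, with only regions without H3K4me3 ranked, at the q limit and with the replicate block. At an unadjusted p of 0.05, these settings had 18 to 68 members higher and 24 to 77 lower in DE. Of all regions tested, 553 of 6237 had such a p at the q limit and 1236 of 11891 by fold. For the 5S rRNA gene array the difference was −53.0 to −29.6 points leaving out each library and −33.2 points by fold. As numbered in the files' record, replicates did not pair (correlation of same-numbered deviations −0.003), a check that assumes the DE numbers hold. With the replicate block the difference was 0.78 and limma again called 0 members. The other alternatives kept direction and side of the threshold. The cause of these moves was not tested, beyond fewer lists or peaks entering. The planned counts on members' own sequence, in 2 window settings, were not run. Read depth is unknown, and limits what a missing call means.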
